A study of Mus musculus with 27 samples.

Results

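The return of mouse embryonic stem cells (mESCs) from 24 h in 2i medium to ESLIF medium was described from 1304 of the 4147 mESCs listed by the authors. These cells were chosen by their sample labels alone, with no measured value, as all cells on the 4 plates of conditions 4 and 6, of 12 mESC plates and 27 samples in the series. All cells belonged to 1 hybrid line, B6, with 1 genome from the 129S1/SvImJ strain and 1 from C57BL/6. Condition 4 received 2i for the last 24 h and was collected in 2i. Condition 6 received 2i for 24 h and ESLIF for a further 24 h before collection. Each condition was 1 culture of 1 cell line, sorted into 2 plates of 384 wells, so the plates are technical replicates and no test between the conditions was possible. Differences are therefore set against the spread between plates of the same condition, pooled over all 6 mESC conditions (6 degrees of freedom), which holds no variation between cultures. The 15 single gastruloids of the series were not used here.

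ESLIF combines serum with leukaemia inhibitory factor, a cytokine that holds mESCs in self-renewal through STAT3. 2i combines the same cytokine with inhibitors of the kinases GSK3 and MEK, and is known for moving mESCs towards the ground state of pluripotency, which resembles the epiblast before implantation. Inhibition of GSK3 stabilises beta-catenin and inhibition of MEK blocks the ERK signal, which otherwise prepares mESCs to leave pluripotency. When the inhibitors are taken away, mESCs with serum and the cytokine are known to return to a heterogeneous state with more lineage priming. mESCs spend most of their short cycle in S phase and have a brief G1 phase.

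The values analysed were the counts, the number of detected genes and the mitochondrial percentage of each cell. Also analysed were the S and G2M cell cycle scores, the cell cycle phase, the annotated state and the UMAP position. No values of single genes were used, so no state could be checked against its marker genes and no gene is reported with a level. Of the 1536 wells sorted, 84.9% were listed as cells. Condition 4 had 354 cells in technical replicate 1 and 284 in technical replicate 2. Condition 6 had 359 and 307 cells, respectively. Technical replicate 2 thus gave fewer cells in both conditions. Condition 4 received 24592570 and 18978484 reads, whereas condition 6 received 29120775 and 8696308 reads, a 3.35-fold difference between plates of the same culture. The second plate of condition 6 also had the fewest reads per count of all 12 plates, 3.58, against 6.10 on the first plate and 5.91 and 8.28 on the plates of condition 4. Of the well numbers, 212 were listed on all 4 plates, which share 1 set of cell barcodes by design, and no listed cell repeated the counts, genes and scores of another.

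The annotated states of the 2 conditions barely overlapped. Epiblast-like, the state that held most cells after 24 h in 2i, took 82.8% and 88.4% of the cells in technical replicates 1 and 2 of condition 4. After the return to ESLIF it held 0.279% of technical replicate 1, which is 1 of 359 cells, and 0 of 307 cells in technical replicate 2, which allows a share of up to 0.977%. Primed Pluripotency, the state of mESCs that are prepared for differentiation, showed the opposite pattern, with 0.847% and 0.704% in condition 4 and 96.1% on each plate of condition 6. The condition means were 0.776% ± 0.101 and 96.1% ± 0.00642 (SD, n = 2 plates). The SD of condition 6 is far smaller than its counting error, with 95% Wilson intervals of 93.6% to 97.7% and 93.3% to 97.8% on its plates. The difference between the condition means of 95.3 percentage points was 71.3 times the pooled SD between plates of 1.34 points. The mESCs kept in ESLIF throughout, condition 1, had 7.39% and 3.47% of their cells in Primed Pluripotency and most of the others in Ectoderm Priming, a state that the authors named for factors of Sonic Hedgehog signalling, a pathway of neural ectoderm patterning. Ectoderm Priming held 2 and 6 cells in condition 6 (0.557% and 1.95%), compared with 90.6% and 93.6% of the cells of condition 1. Condition 5, which spent 48 h in 2i and 48 h in ESLIF, had 98.4% and 96.6% in Primed Pluripotency, and condition 6 differed from it by -1.40 points, 1.05 times the pooled SD between plates. The states, like the UMAP, were built by the authors from the cells themselves after regression on counts, mitochondrial percentage and phase, so that their separation is a description of these libraries.

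The remaining states of the 2i conditions were not found in condition 6 beyond single shallow cells. Naive Pluripotency, the main state of condition 3 (48 h in 2i), held 40 and 13 cells in condition 4 (11.3% and 4.58%) and 0 cells on both plates of condition 6, which allows up to 0.450% of its 666 cells. The 95% Wilson intervals in condition 4 ran from 8.41% to 15.02% and from 2.69% to 7.67%, so that the intervals of the plates of the same culture did not overlap. Ground State Pluripotency held 13 and 12 cells in condition 4 and 0 and 2 in condition 6. These small states differed in depth. The 53 Naive Pluripotency cells of condition 4 had a median of 11193 counts, near the 10454 counts of its Epiblast-like cells, while the 25 Ground State Pluripotency cells had a median of 676 counts and 20 of them had fewer than 1000. Of all cells of condition 4, 21 in technical replicate 1 and 33 in technical replicate 2 had fewer than 1000 counts. The part of low counts in the Ground State Pluripotency annotation of condition 4 was not tested further. Endoderm Progenitors held 3 and 4 cells in condition 4 and 7 and 3 cells in condition 6. Mesoderm Progenitors held 1 and 2 cells in condition 4 and 4 and 1 cells in condition 6. These outlier states each made up at most 1.95% of a plate, and their 95% Wilson intervals overlapped between all 4 plates.

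Cells annotated with a state of the other medium were rare and had few counts. In condition 4, 6 of 638 cells (0.940%, 95% Wilson interval 0.432% to 2.04%) carried a state of the ESLIF conditions, 5 of them Primed Pluripotency and 1 Ectoderm Priming. Their median was 982.5 counts, against 10024 counts for all cells of condition 4. Of the 6 cells, 5 had 455 to 1537 counts and the other had 4027. In condition 6, 3 of 666 cells (0.450%, 0.153% to 1.32%) carried a state of the 2i conditions, 2 Ground State Pluripotency and 1 Epiblast-like. These 3 cells had 460 to 664 counts, against a median of 9959 counts for the condition. Among cells with at least 3000 counts, a limit set after the values were seen, 1 of 515 cells of condition 4 remained in a state of the other medium and 0 of 574 cells of condition 6, which allows up to 0.523%. All intervals and limits of this kind cover counting error only.

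**Figure D1:**
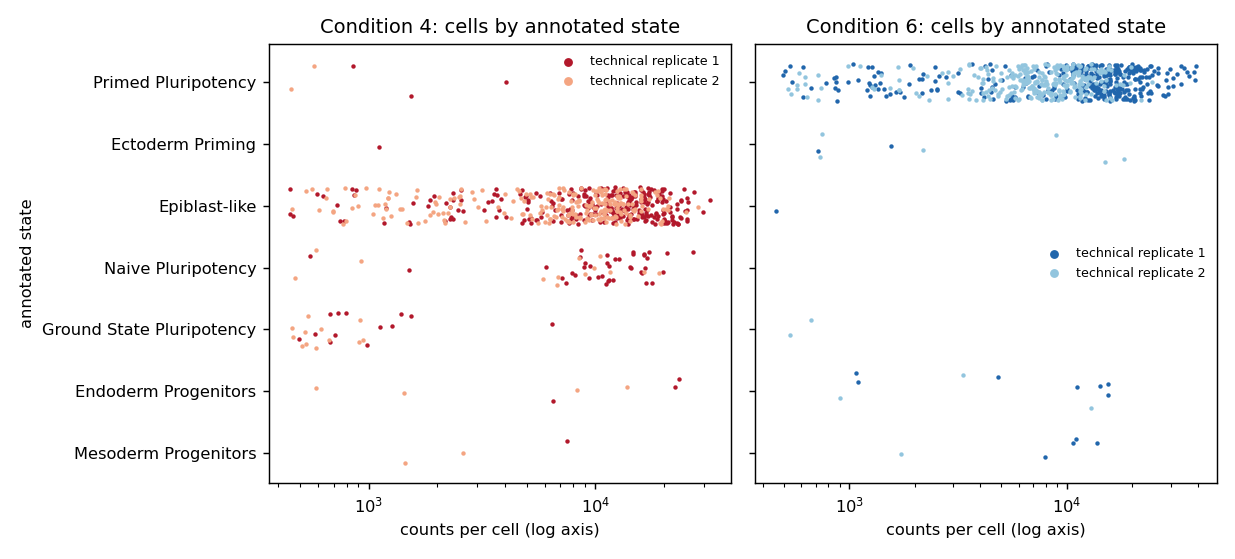
Counts per cell (horizontal, log axis) of every cell of condition 4 (left) and condition 6 (right), with the annotated state on the vertical axis, random vertical scatter within a state, and darker and lighter points for technical replicates 1 and 2. The 3 condition 6 cells in 2i states lie at 460 to 664 counts, and 20 of the 25 Ground State Pluripotency cells of condition 4 lie under 1000 counts.

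On the UMAP, the cells of condition 6 lay far from those of condition 4 and near those of condition 5. The plate medians of the second coordinate were 1.31 and 2.14 in condition 4, against 8.05 and 10.3 in condition 6. From the 5th to the 95th percentile, this coordinate covered -0.236 to 3.61 and 0.204 to 3.65 in condition 4, whereas the plates of condition 6 covered 5.36 to 11.2 and 6.04 to 11.7. These ranges did not overlap. The distance between the median positions of conditions 4 and 6 was 7.48 UMAP units, against 1.57 between conditions 5 and 6, 3.20 between conditions 1 and 6 and 6.16 between conditions 1 and 4. The corresponding distance for the return after 48 h in 2i, between conditions 3 and 5, was 10.4. Distances on a UMAP are not proportional to differences in expression, so their order is a description only.

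The cells of both conditions barely mixed. When the 15 nearest neighbours of each cell were taken among conditions 4 and 6 only, condition 4 made up 1.93% of the neighbours of condition 6 cells in technical replicate 1 and 1.41% in technical replicate 2, whereas a random mixture would give 49.0%. In the opposite direction, condition 6 made up 1.88% and 2.49% of the neighbours of condition 4 cells. At least 1 neighbour of the other condition was found for 15 and 13 cells of condition 4 and for 43 and 15 cells of condition 6. In condition 4 these cells were shallow, with medians of 1382 and 917 counts, compared with 11880 and 7965 counts for all cells of the plates. In condition 6 they were shallow in technical replicate 2, with a median of 1690 counts against 7640, but not in technical replicate 1, with 13895 counts against 13669. Only 3 of the 666 cells of condition 6, and 17 of the 638 cells of condition 4, had 50% or more of their neighbours in the other condition.

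The 2 plates of condition 6 did not lie in the same place. The distance between their median positions was 2.83 UMAP units, the largest of the 6 conditions, in which the other distances between plates ran from 0.375 to 1.30, with 0.836 in condition 4. Over all mESCs, condition 5 supplied 34.4% of the neighbours of technical replicate 1 and 14.2% of those of technical replicate 2. Condition 1 supplied 3.32% and 6.28%. Neighbours from the same plate made up 41.7% and 57.2%, compared with 50.9% and 48.9% on the plates of condition 4. The nearness of condition 6 to condition 5 therefore differed by plate, and the plates differed 3.35-fold in reads. The part of depth in this difference was not tested.

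**Figure D2:**
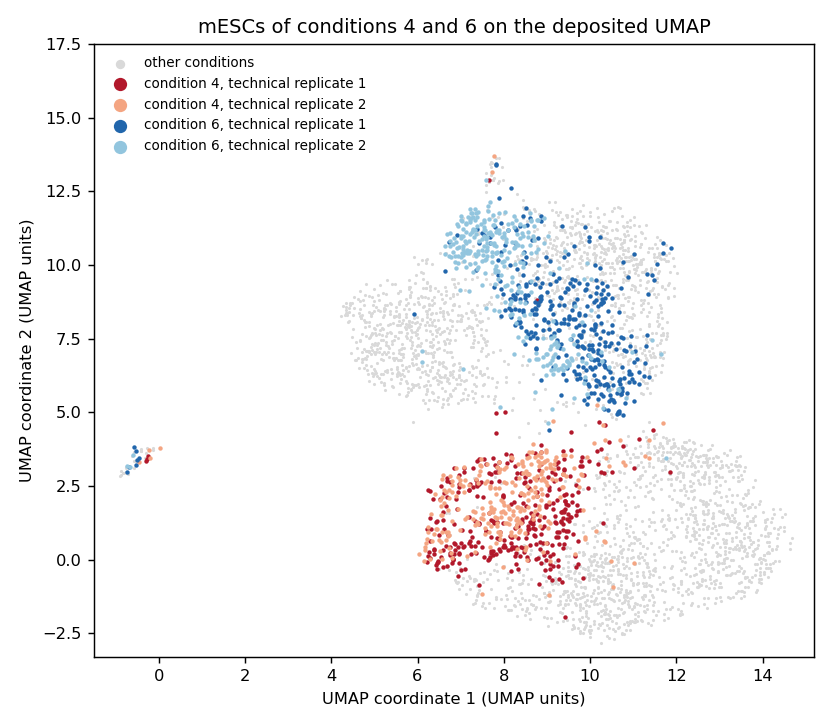
Deposited UMAP coordinates 1 and 2 (UMAP units) of all mESCs, with the cells of condition 4 in reds, those of condition 6 in blues and the other conditions in grey. Condition 4 lies at the bottom and condition 6 at the top, with medians 7.48 units apart, and the plates of condition 6 occupy partly different areas.

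Primed Pluripotency was made up of 2 Leiden clusters, groups of cells with similar transcriptomes. In technical replicate 1 of condition 6, 172 of 345 Primed Pluripotency cells were in the smaller cluster, and in technical replicate 2, 70 of 295. In technical replicate 1 the smaller cluster was the deeper one, with a median of 16967.5 counts against 12135 in the larger cluster, whereas in technical replicate 2 it was the shallower one, with 6506.5 against 7887 counts. Within both plates its share was lowest at middle depth. Over 3 classes with equal numbers of cells of conditions 4 and 6, divided at 7073 and 12819 counts, the smaller cluster took 57.5%, 12.5% and 60.6% of the Primed Pluripotency cells of technical replicate 1 and 27.9%, 15.6% and 41.9% of those of technical replicate 2. The share therefore followed no steady trend with counts. Among cells with 5000 to 15000 counts the plates differed by 6.93 percentage points, against 26.1 points over all cells. This window cuts off parts of the lowest and highest classes, where the shares of the plates lay furthest apart. The part of depth in the difference between the plates was not tested. On the UMAP, the smaller cluster had close median second coordinates on both plates, 6.77 and 6.76, while the larger cluster had 9.18 and 10.6. Its median S scores were 0.0553 and 0.0633, next to 0.0538 and 0.0578 in the larger cluster.

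**Figure D3:**
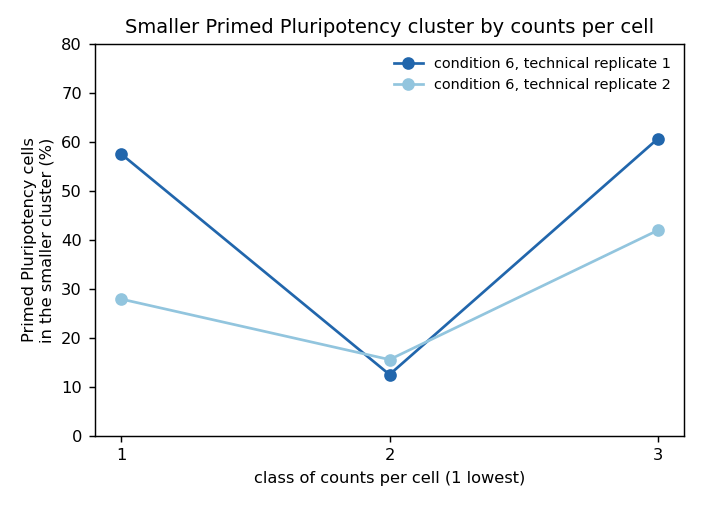
Percentage of the Primed Pluripotency cells of condition 6 in the smaller Leiden cluster (vertical) within 3 classes of counts per cell (horizontal, 1 lowest), with 1 line for each technical replicate. Both plates have their lowest share, 12.5% and 15.6%, in the middle class.

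The S score was higher after the return to ESLIF. Such a score usually sums up the expression of DNA replication genes relative to other genes of the cell, but neither the genes used nor the reference genes are given in the sources used here. A difference in the reference genes between the media would also move the score, and was not tested. Its median was 0.0435 and 0.0411 in condition 4, against 0.0543 and 0.0593 in condition 6, so that both plates of condition 6 lay above both of condition 4. The means of the plates were 0.0423 ± 0.00169 and 0.0568 ± 0.00360 (SD, n = 2 plates). The difference of 0.0145 was 5.92 times the pooled SD between plates of 0.00246. Cells within a plate varied far more than the plates, with an SD over cells of 0.0257 to 0.0288 on these 4 plates. A score over 0.05 was found in 40.7% and 37.0% of the cells of condition 4 and in 56.0% and 60.6% of the cells of condition 6.

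Condition 6 had an S score similar to that of condition 5 and higher than that of condition 1. The medians were 0.0557 and 0.0588 in condition 5 and 0.0424 and 0.0385 in condition 1, so that the 4 plates of conditions 5 and 6 were the highest of all 12 plates. Condition 6 differed from condition 5 by -0.000453, with overlapping plates, and from condition 1 by 0.0164. The return after 48 h in 2i, which shares no plate with the return after 24 h, gave a difference of 0.0110 (condition 5 minus condition 3), with medians of 0.0447 and 0.0479 before it. Condition 4 differed from condition 1 by 0.00183, with overlapping plates. The plates of both conditions that had returned from 2i thus lay above the other 8 plates, whose medians ran from 0.0385 to 0.0479. With 1 culture each, the condition and the culture cannot be told apart.

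**Figure D4:**
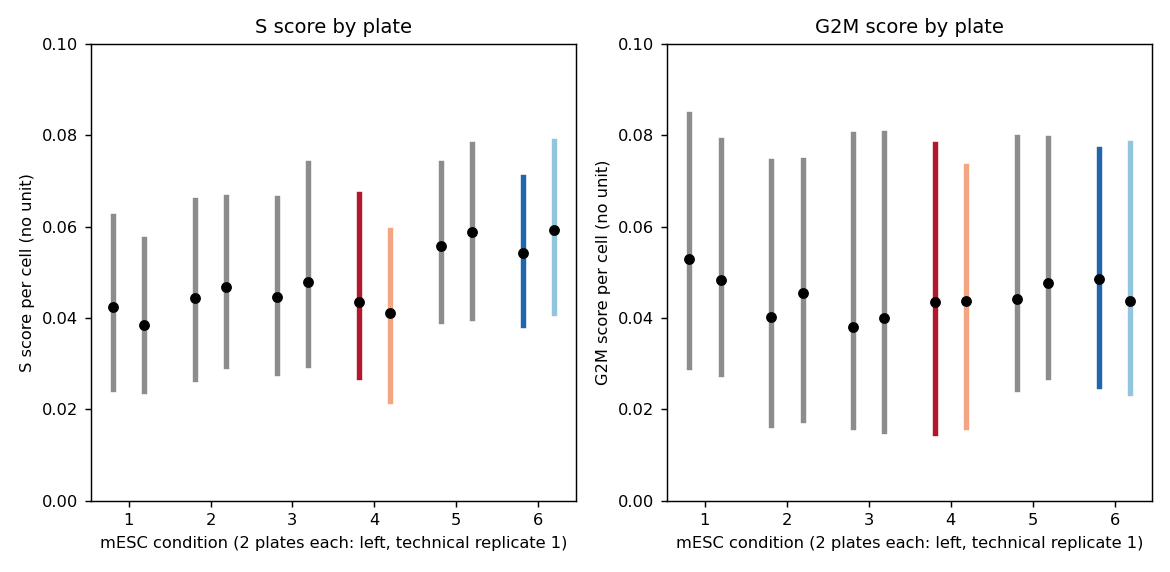
S score (left) and G2M score (right), without unit, for each of the 12 mESC plates, with the median over cells as a black point and the range between quartiles as a bar (condition 4 in reds, condition 6 in blues, others grey). The S score medians of conditions 5 and 6, 0.0543 to 0.0593, are the 4 highest, whereas the G2M scores show no such separation.

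The difference in S score was then compared within classes and bands of counts and within the main states. Within the 3 classes of counts, condition 6 was higher than condition 4 by 0.0175, 0.0153 and 0.00932 from the lowest to the highest class, with no overlap of plates in any of these 3 classes. The lowest class was not matched in depth. Its plates had medians of 2507.5 and 2133 counts in condition 4 and 1990.5 and 4671 counts in condition 6. The S scores of the latter plates were 0.0471 and 0.0649. Across the cells of each plate, the rank correlation of the S score with counts lay between -0.101 and 0.0953 over 284 to 359 cells, which share a library. In narrower bands of counts, the medians at 9000 to 11000 counts were 0.0514 and 0.0407 in condition 4 and 0.0648 and 0.0555 in condition 6. At 14000 to 16000 counts they were 0.0548 and 0.0426 in condition 4 and 0.0674 and 0.0448 in condition 6, so that the plates overlapped in this band, which held 15 to 45 cells per plate. At 4000 to 6000 counts the plates did not overlap, with 0.0408 and 0.0335 against 0.0537 and 0.0753. Among cells in the main state of each condition, the medians were 0.0442 and 0.0414, and 0.0549 and 0.0600. In these cells the plates of the conditions did not overlap. Scores within the phases S and G2M are not reported, since the phase is set by the same scores. The G1 cells alone are given below as an alternative. The 53 Naive Pluripotency cells of condition 4 had a median S score of 0.0330, lower than that of its Epiblast-like cells at 0.0428.

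More cells of condition 6 had both scores high at once. Both scores exceeded 0.05 in 8.47% and 8.10% of the cells of condition 4 and in 20.3% and 15.3% of the cells of condition 6. Neither score exceeded 0.05 in 24.3% and 27.8% of the cells of condition 4 and in 15.9% and 11.4% of those of condition 6. The plates of the 2 conditions did not overlap in either share. Condition 5 had both scores high in 14.5% and 19.9% of its cells, while condition 3 had 7.97% and 8.70% and condition 1 had 9.09% and 6.65%. Condition 2, which was collected in 2i after a longer stay, had 8.54% and 14.53%, so that its second plate lay level with the lower plate of condition 5. These shares use the same S score and are not independent of the difference given above.

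The G2M score, which summarises genes of the G2 phase and mitosis, differed over all cells by less than the pooled SD between plates. Its median was 0.0435 and 0.0436 in condition 4 and 0.0485 and 0.0437 in condition 6. The difference of 0.00256 was 0.937 times the pooled SD between plates of 0.00273. Both plates of condition 6 lay above both of condition 4, the lower one by only 5.67e-05. Unlike the S score, the G2M score increased with counts on each of the 4 plates, with rank correlations of 0.259 to 0.360 over their cells. Within the classes of counts the difference was 0.00644, 0.00437 and 0.00522, with no overlap of plates in the lowest class and overlap in the others. At 4000 to 6000 counts the medians were 0.00150 and 0.0348 in condition 4 and 0.0360 and 0.0382 in condition 6. At 9000 to 11000 counts the plates overlapped. At 14000 to 16000 counts the medians were 0.0413 and 0.0645 in condition 4 and 0.0357 and 0.0623 in condition 6. In this band the lowest plate was of condition 6 and the highest of condition 4.

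The share of cells with the phase S was nominally higher in condition 6, but it depended on the plate. The phase was set by the scores alone, since the sign and order of both scores gave the deposited phase of all 4147 mESCs. The S share was 50.3% and 46.8% in condition 4 and 51.0% and 55.7% in condition 6. The G2M share was 48.6% and 51.1% in condition 4 and 47.9% and 43.6% in condition 6. The S share differed by 4.78 percentage points, 2.58 times the pooled SD between plates of 1.86 points, and the G2M share by -4.04 points. For the S share, the SD between plates was 2.44 points in condition 4 and 3.34 points in condition 6. These were the largest values of all mESC conditions, above the pooled SD. With the plates of technical replicate 1 alone the S share differed by 0.692 points, and with those of technical replicate 2 alone by 8.87 points. The 95% Wilson intervals of the plates overlapped, with 45.1% to 55.5% and 41.1% to 52.6% in condition 4 and 45.8% to 56.1% and 50.1% to 61.2% in condition 6. Within each class of counts the plates of the conditions overlapped, and the difference was -0.660 points in the lowest class, 4.90 in the middle class and 8.91 in the highest class. Cells with the phase G1 numbered 4 and 6 in condition 4 and 4 and 2 in condition 6, and 5 of the 6 in condition 6 were Endoderm Progenitors. A phase called from these scores is a range of the score rather than a type of cell, and 311 of the 1304 cells (23.8%) lay within 0.02 of a boundary between phases. The condition 1 cells had S shares of 43.2% and 42.5%, lower than all 4 plates described here.

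**Figure D5:**
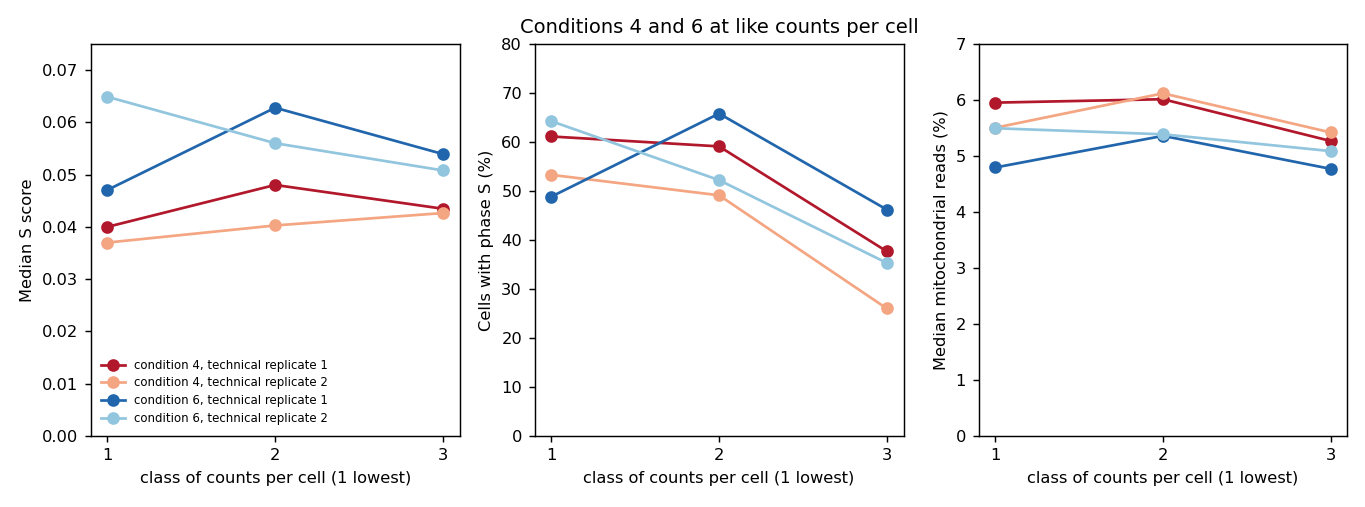
Median S score (left, no unit), percentage of cells with the phase S (middle) and median mitochondrial percentage (right) within 3 classes of counts per cell (1 lowest), with 1 line for each plate of conditions 4 (reds) and 6 (blues). The S score lines of condition 6 lie above those of condition 4 in each class and its mitochondrial lines below, whereas the lines for the phase S cross.

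Counts and genes per cell did not separate the conditions. The median was 11880 and 7965 counts in condition 4 and 13669 and 7640 counts in condition 6, so that the plates of condition 4 lay between those of condition 6. The log2 difference of the medians was 0.07, a ratio of 1.05, with a pooled SD between plates of 0.32. The median number of genes was 4745 and 3852 in condition 4 and 5123 and 3675 in condition 6, a difference of 100.5 genes with a pooled SD between plates of 517. Cells with 9000 to 11000 counts had medians of 4371 and 4440.5 genes in condition 4 and 4472 and 4238 genes in condition 6. At 4000 to 6000 counts the medians were 2889.5 and 2951 genes in condition 4 and 2792.5 and 2826 in condition 6. Both plates of condition 6 thus lay lower in this band. At 14000 to 16000 counts they were 5270.5 and 5343 genes in condition 4 and 5365 and 5279 in condition 6, with overlap of plates. The number of genes at like counts therefore overlapped between the conditions except in the lowest band. The return after 48 h, by comparison, had a log2 difference in counts of 0.61, with both plates of condition 5 above those of condition 3.

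The mitochondrial percentage was slightly lower after the return. Its median was 5.66% and 5.65% in condition 4 and 4.93% and 5.43% in condition 6, without overlap of plates. The difference of -0.471 percentage points was 0.924 times the pooled SD between plates of 0.509 points. The largest SD in this pool was that of condition 1, 1.04 points, against 0.0108 points in condition 4 and 0.357 points in condition 6. Each of these SDs rests on only 2 plates. Without technical replicate 1 of condition 6 the difference was -0.218 points, and without technical replicate 2 it was -0.723 points. It had the same sign without overlap of plates in all 3 classes of counts, at -0.584, -0.693 and -0.416 points from the lowest to the highest. In cells with 9000 to 11000 counts, the medians were 6.15% and 6.10% in condition 4 and 5.24% and 5.36% in condition 6. The return after 48 h gave -0.559 points, with 5.34% and 5.14% in condition 3 and 4.50% and 4.86% in condition 5. Both conditions lay below condition 1, whose plates had 6.51% and 7.99%. The highest value of a cell in conditions 4 and 6 was 33.9%. The few Mesoderm Progenitors had low values, with medians of 0.384% over 3 cells of condition 4 and 1.16% over 5 cells of condition 6.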

How the data were processed

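Single mESCs were sorted into plates and sequenced with CEL-seq2, which tags transcripts with molecular identifiers. The authors trimmed reads with cutadapt (4.1), mapped them with STAR (2.5.3a) to GRCm38 with strain differences masked, and used SAMtools (1.15.1), per the submitters' processing notes, then removed duplicates. Their filters dropped cells below 500 reads or above 40% in mitochondrial percentage. According to the study, mitochondrial, ribosomal and Malat1 reads were left out of later steps. Whether the deposited counts include them is not stated in the sources used here. Among the cells of conditions 4 and 6, 11 have fewer than 500 counts. The deposited counts and genes per cell are whole numbers without normalization, and the reads per plate are a deposited count. The deposited mitochondrial fraction was multiplied to percent. Each deposited score and UMAP coordinate is without unit, and the genes behind the scores are not given in the sources used here. State names follow the study where the table uses an older name. In the read report, 3 library names match no sample.

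Plates were grouped by the labels and the hours taken from the study. Medians and shares were computed per plate and then averaged over the plates of a condition (Python 3.11.15, NumPy 2.4.6, pandas 2.3.3, SciPy 1.17.1). Cells are not replicates, and no p-value was computed. Cells were neither thinned nor tested for doublets, since gene-level counts were not used, so depth was compared through classes of counts. Neighbours were the 15 nearest cells. Alternatives were a minimum of 1000 or 3000 counts, at most 20% mitochondrial reads, outlier states left out, classes or a window of counts (5000 to 15000), main states only, means, pooled plates, single or left-out plates, other phase limits, 5 or 50 neighbours and equal cell numbers (seed 1). The minimum of 3000 counts, and main states for the UMAP, were added after seeing the data. The conditions, measures and lists were chosen with earlier results of these data known. No gene was named with a value because no gene-level table was used.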

Additional observations from a re-analysis of the deposited data

How the results depend on the processing

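Every difference below is condition 6 minus condition 4. Of 175 alternative values of the 12 main results, 123 moved by less than 1 SD between plates. That SD was pooled over the 6 mESC conditions, except for the share of condition 4 neighbours, where it covered conditions 4 and 6 only. The direction changed in 16 of the alternative values. Of these, 14 concerned counts and genes per cell, where the plates overlap, and 2 the scores of the 16 G1 cells. No paired analysis was possible because no result comes from a test, and the replicate numbers mark only plates.

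Primed Pluripotency differed by 96.7 points at 1000 or more counts, 97.4 at 3000, 97.3 at 5000 to 15000 and 97.5 without outlier states, and Epiblast-like by -89.4, -89.9 and -88.9 for the first 3. With replicate 1 or 2 plates alone, Epiblast-like differed by -82.5 and -88.4, the S score by 0.0108 and 0.0183, the S share by 0.692 and 8.87, the G2M share by -0.677 and -7.41 and the G1 share by -0.0157 and -1.46, with 2.08% and 2.11% shared neighbours. At 1000 or more counts the G1 share differed by -0.242. With cells near a boundary left out, the S, G2M and G1 shares differed by 6.66, -6.58 and -0.0784, and with a phase limit of 0.05 by 12.7, -0.326 and -12.4. The G2M score differed by 0.00534 within classes of counts. In the G1 cells the S score differed by -0.0120 and the G2M score by -0.00119. Shared neighbours were 1.01% at 1000 or more counts, 0.969% at 3000, 0.973% without outlier states, 0% in main states, which were clustered from the same cells so that this value is no support, and 2.22% with 50 neighbours. The causes were not tested.

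Leaving out each plate gave -88.2 to -82.6 for Epiblast-like, 2.42 to 7.14 for the S share, -6.17 to -1.91 for the G2M share, -1.23 to -0.247 for the G1 share, 0.0120 to 0.0171 for the S score, -0.35 to 0.49 for log2 counts, -623.5 to 824.5 genes, -0.723 to -0.218 for the mitochondrial percentage, 0.00015 to 0.00497 for the G2M score, 6.48 to 8.60 UMAP units and 1.25% to 2.84% shared neighbours. The plates of condition 6 set both ends for the S and G2M scores, the S and G2M shares, counts and genes. They also set both ends for the mitochondrial percentage and the UMAP distance. Without technical replicate 1 of condition 6 the S share differed by 7.14, and without its technical replicate 2 by 2.42. The low read number of that plate and the single culture per condition limit all values.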
